A study of Mus musculus with 16 samples.

Results

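Respiratory complex I was followed in the hippocampus through the Nduf genes, the nuclear genes whose symbol begins with Nduf and which encode most subunits of the complex together with a set of its assembly factors. On the array used, 88 probe sets carry a single gene symbol of this kind in the platform's annotation, and they stand for 44 genes of the 18193 genes that have such a probe set. Where a gene had more than 1 probe set, as 22 of the 44 did, the probe set of highest mean over the 16 arrays represented it. A further 10 probe sets list a Nduf symbol beside another symbol and were left out. A value over 4 log2 units on at least 4 arrays was needed for a test, which 42 of the 44 genes passed; the means of the tested genes lay between 6.40 and 13.63 log2 units and 32 of them were above 11. The exceptions were Ndufa4l2, at 1.74 to 1.80 log2 units on the 16 arrays, and the only single-symbol probe set of Ndufb4, at 1.93 to 2.12 log2 units.

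RNA of the hippocampus was hybridised from 16 individual male mice aged 12 months, 4 in each of 4 groups. The AβPP-Antisense group were SAMP8 mice given an antisense oligonucleotide against the amyloid-β protein precursor by the intravenous route, and the Random-Antisense group were SAMP8 mice given a random oligonucleotide by the same route. The SAMP8 group were untreated mice of the senescence-accelerated strain, which is described as having memory deficits at this age. The Control group were untreated mice from a 50% backcross of SAMP8 with CD-1, described as free of memory deficits, so that they differ from the SAMP8 mice in part of their genome and share the rest. Each array is 1 mouse. The SAMP8 background is common to all but the Control mice, and no group of another strain received an oligonucleotide. The array labelled Random-Antisense 1 is placed with the random oligonucleotide by its title, source and description, whereas its treatment field says that nothing was given.

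Complex I takes electrons from NADH, passes them along a chain of iron-sulphur clusters to ubiquinone and pumps protons across the inner mitochondrial membrane. It has the shape of an L: a peripheral arm in the matrix, made of an NADH-oxidising N module and a quinone-reducing Q module, and a membrane arm with a proximal and a distal part. The core subunits carry the chemistry, the accessory subunits surround and stabilise them, and assembly factors join the modules without staying in the finished enzyme. Neurons depend heavily on oxidative phosphorylation, and loss of single complex I subunits causes encephalopathy in humans and mice. Subunit positions and assembly roles given below as background are known mainly from human cells and from the bovine and mouse enzymes.

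The promoters of many nuclear genes for respiratory subunits hold sites for the factors NRF1 and GABP, an ETS protein. RefSeq's table of promoters, build GRCm38.p6, held 41 windows for 39 of the 44 genes, and the 250 bases before the annotated start were searched on both strands among 32851 windows of all genes. The letters CGCATGCG, a core of the NRF1 site, were in 2 of the 41 windows (4.88%), those of Ndufa8 and Ndufaf4, and in 1.55% of all windows. The letters CCGGAAG, an ETS core, were in 5 of the 41 windows (12.2%), those of Ndufaf1, Ndufaf8, Ndufb6, Ndufb7 and Ndufs3, and in 6.91% of all windows. AAGATGGC, read for YY1, and TCAAGGTCA, read for the oestrogen-related receptors, were in 0 of the 41 windows and in 1.56% and 0.387% of all windows. A match is a string of letters and not a mapped site. The 4 windows printed are those of Ndufaf8, the gene with the largest single difference below, Ndufb7, the gene highest on the array AβPP-Antisense 4, the core subunit Ndufs3, and Ndufaf4, the gene with the largest deviation on a single array. Each runs 5′ to 3′ on the gene's strand and ends at the base before the start, and capitals mark the match.
Ndufaf8, chr11:120098684-120098933 (plus strand): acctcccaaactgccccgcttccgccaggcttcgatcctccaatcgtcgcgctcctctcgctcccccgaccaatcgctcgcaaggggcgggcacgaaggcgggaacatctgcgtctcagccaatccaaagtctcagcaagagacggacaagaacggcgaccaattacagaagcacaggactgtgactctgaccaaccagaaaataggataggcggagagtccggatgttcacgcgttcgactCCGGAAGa
Ndufb7, chr8:83566508-83566757 (plus strand): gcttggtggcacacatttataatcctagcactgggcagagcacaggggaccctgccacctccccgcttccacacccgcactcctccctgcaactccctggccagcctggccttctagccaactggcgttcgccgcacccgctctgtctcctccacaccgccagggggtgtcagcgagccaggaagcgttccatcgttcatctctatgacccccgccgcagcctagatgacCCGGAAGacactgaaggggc
Ndufs3, chr2:90904722-90904971 (minus strand): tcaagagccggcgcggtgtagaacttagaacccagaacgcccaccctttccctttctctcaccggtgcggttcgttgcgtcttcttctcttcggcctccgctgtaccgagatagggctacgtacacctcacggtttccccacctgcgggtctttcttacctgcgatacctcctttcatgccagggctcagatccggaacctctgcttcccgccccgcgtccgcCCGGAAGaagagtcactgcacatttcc
Ndufaf4, chr4:24897833-24898082 (plus strand): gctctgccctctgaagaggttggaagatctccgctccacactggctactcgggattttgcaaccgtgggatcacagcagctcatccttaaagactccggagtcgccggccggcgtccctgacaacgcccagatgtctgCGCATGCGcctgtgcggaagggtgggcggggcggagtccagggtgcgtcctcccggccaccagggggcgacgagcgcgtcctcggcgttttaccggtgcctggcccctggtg
In these windows the ETS letters began 8 bases before the start in Ndufaf8, 20 bases before it in Ndufb7 and 27 bases before it in Ndufs3, and the NRF1 letters began 112 bases before the start in Ndufaf4.

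Before the genes are described, 2 arrays have to be named, because their median correlations with the other arrays were the lowest of the 16. On AβPP-Antisense 4 the 3′ signal of the beta-actin control probe sets exceeded the 5′ signal by 3.89 log2 units, against 0.84 to 1.60 on the other 15 arrays. AβPP-Antisense 1 and 2 both read 1.60 and AβPP-Antisense 3 read 1.21, against 0.84 to 1.36 in the other groups. For the Gapdh control probe sets the difference was -0.09, 0.02, -0.35 and 1.26 on AβPP-Antisense 1 to 4. It was at most -0.30 on the arrays of the other groups. Such differences are used as a measure of RNA integrity. The median correlation of AβPP-Antisense 4 with the other arrays was 0.905, and that of Control 4 was 0.922. Control 4 held leukocyte transcripts: the log2 of the summed values of 7 tested leukocyte markers was 15.53 there, the highest of the Control arrays, whose median was 11.93. The neuronal and hippocampal markers listed to check the tissue were all detected (10 of 10 and 11 of 11 tested). Their summed level in log2 units ran over 16.22 to 16.79 in AβPP-Antisense, 16.80 to 16.88 in Random-Antisense, 16.78 to 16.82 in SAMP8 and 16.22 to 16.86 in Control for neurons, and over 11.94 to 13.60, 12.85 to 13.24, 12.91 to 13.20 and 12.26 to 13.11 in the same groups for hippocampal neurons. The choroid plexus markers (8 of 10 tested) summed to 11.18 to 15.30 in AβPP-Antisense, 15.30 to 15.78 in Random-Antisense, 15.61 to 15.95 in SAMP8 and 15.35 to 15.67 in Control, and 4 of the 8 passed the test as lower in AβPP-Antisense than in SAMP8. AβPP-Antisense 2 held the lowest hippocampal and choroid plexus sums of the 16 arrays, 11.94 and 11.18. On AβPP-Antisense 1 and 3 the hippocampal sums were 13.43 and 13.60 and the choroid plexus sums 13.30 and 13.49. Leaving out AβPP-Antisense 4 and Control 4 therefore keeps AβPP-Antisense arrays of unlike marker level and unlike 3′ to 5′ difference. The part of these differences in the Nduf values was not tested. App, the gene the oligonucleotide is directed at, read 14.19, 14.32, 14.26 and 13.89 log2 units on its brighter probe set in AβPP-Antisense mice, against 14.43, 14.39, 14.37 and 14.34 in Random-Antisense mice; the difference was -0.22 (SE 0.13, limma adjusted p = 0.503), and on its second probe set -1.05 (SE 0.43, adjusted p = 0.359), where AβPP-Antisense 4 read 10.59.

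No Nduf gene passed an adjusted p of 0.05 in any comparison. This held for the 42 tested genes in AβPP-Antisense against Random-Antisense, AβPP-Antisense against SAMP8, Random-Antisense against SAMP8 and SAMP8 against Control, and in the F test over the 4 groups. The share of all 11464 tested genes that passed was small as well, at 0.0262%, 0.096%, 0% and 0.227% in those comparisons and 0.419% in the F test. At an unadjusted p under 0.05 in the F test stood 1 of the 42, Ndufaf8, against 10.4% of all genes. Differences are given in log2 units, the first group minus the second, with the standard error and the adjusted p of limma, adjusted over all tested probe sets of the comparison; 1 log2 unit is a 2-fold change. The 95% interval of every one of the 42 genes lay within 1 log2 unit of 0 in each of the 4 comparisons, and within 0.5 log2 units for 29, 30, 36 and 39 genes in the order just given. In RNA from a whole tissue, fewer cells of a type and less RNA per cell cannot be told apart.

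**Figure D1:**
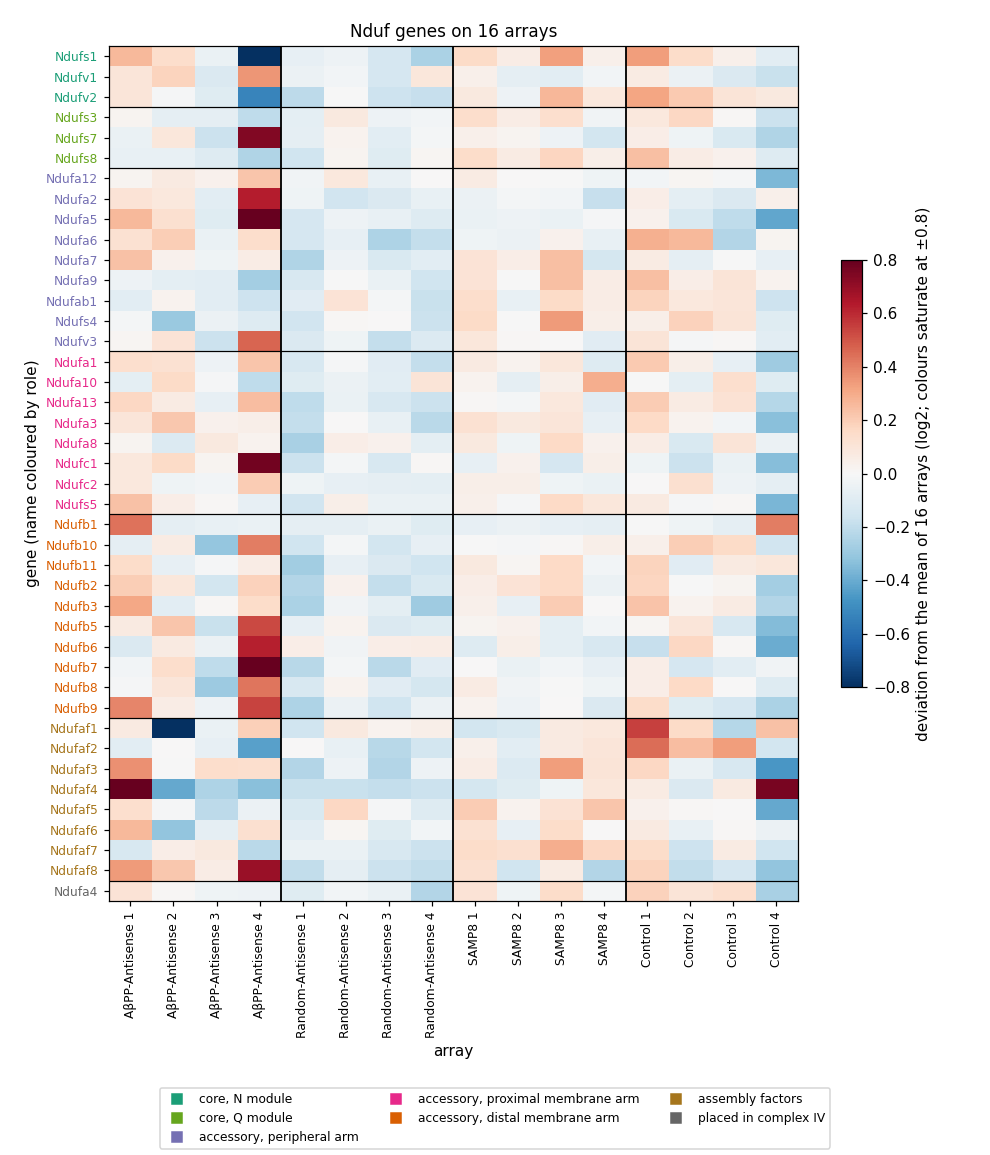
Deviation of each of the 42 tested Nduf genes from its mean over 16 arrays, in log2 units (colour scale, saturating at ±0.8); rows are genes with names coloured by role, columns are arrays, and vertical lines separate the 4 groups. Random-Antisense columns are pale blue in most rows, AβPP-Antisense 4 holds both the highest value of 17 genes and the lowest of 8, and Control 4 holds the lowest value of 17.

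The core subunits of the N module hold the flavin and the first iron-sulphur clusters. Ndufs1, the largest core subunit, read 11.73, 11.61, 11.42 and 10.60 in AβPP-Antisense mice, 11.40, 11.43, 11.34 and 11.22 in Random-Antisense mice, 11.62, 11.53, 11.80 and 11.51 in SAMP8 mice and 11.81, 11.62, 11.52 and 11.39 in Control mice (replicates 1 to 4 in each group). A single array, AβPP-Antisense 4, lay well below the other 15, and the 4 Random-Antisense arrays lay below the 4 SAMP8 arrays without overlap. The difference was -0.01 (SE 0.20, adjusted p = 0.991) against Random-Antisense and -0.28 (SE 0.20, adjusted p = 0.533) against SAMP8, and Random-Antisense minus SAMP8 was -0.27 (SE 0.20, adjusted p = 1.00). Without AβPP-Antisense 4 the first was 0.24 and the second -0.03. Ndufv2, a subunit with an iron-sulphur cluster of its own, read 12.67, 12.57, 12.49 and 12.05 in AβPP-Antisense mice, 12.37, 12.58, 12.42 and 12.39 in Random-Antisense mice, 12.66, 12.54, 12.85 and 12.67 in SAMP8 mice and 12.89, 12.79, 12.68 and 12.66 in Control mice. It was likewise lowest on AβPP-Antisense 4, and its differences were 0.01, -0.23 (SE 0.13, adjusted p = 0.426) and -0.24 in the same order. Without AβPP-Antisense 4 the first was 0.14 and the second -0.10. Its other probe sets, of means 11.95 and 12.33, were instead highest of the 16 arrays on AβPP-Antisense 4, at 12.43 and 12.83. They gave 0.11 and 0.11 for AβPP-Antisense minus SAMP8, opposite in sign to the representing probe set. Ndufv1, which binds NADH and flavin, read 12.60, 12.68, 12.39 and 12.86 in AβPP-Antisense mice, 12.46, 12.48, 12.37 and 12.60 in Random-Antisense mice, 12.55, 12.43, 12.42 and 12.48 in SAMP8 mice and 12.57, 12.46, 12.39 and 12.32 in Control mice. Here AβPP-Antisense 4 was the highest array rather than the lowest, and the difference from Random-Antisense was 0.16 (SE 0.11, adjusted p = 0.599) with all groups overlapping, which was 0.08 without that array and 0.24 without AβPP-Antisense 3.

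In the Q module, Ndufs8, which carries clusters close to the quinone site, read 13.57, 13.57, 13.53 and 13.39 in AβPP-Antisense mice, 13.48, 13.66, 13.54 and 13.65 in Random-Antisense mice, 13.78, 13.70, 13.81 and 13.68 in SAMP8 mice and 13.88, 13.70, 13.67 and 13.53 in Control mice. On this probe set both oligonucleotide groups lay wholly below SAMP8. AβPP-Antisense minus SAMP8 was -0.23 (SE 0.10, adjusted p = 0.315), with a 95% interval of -0.44 to -0.01, Random-Antisense minus SAMP8 was -0.16 (SE 0.10, adjusted p = 1.00), and AβPP-Antisense set against Random-Antisense differed by -0.06 (SE 0.10, adjusted p = 0.843). On the other tested Ndufs8 probe sets AβPP-Antisense minus SAMP8 was -0.22, -0.11, -0.08 and -0.04. The last 2, both of mean 12.15, had AβPP-Antisense arrays that overlapped SAMP8, and AβPP-Antisense 4 was their highest array. The first 2, of lower mean, kept AβPP-Antisense wholly below SAMP8. Random-Antisense overlapped SAMP8 on all of these other probe sets. Ndufs3, a scaffold of this module, read 11.76, 11.67, 11.66 and 11.54 in AβPP-Antisense mice, 11.66, 11.81, 11.69 and 11.71 in Random-Antisense mice, 11.88, 11.79, 11.87 and 11.71 in SAMP8 mice and 11.82, 11.90, 11.75 and 11.57 in Control mice. Its groups overlapped throughout, and it differed by -0.06 (SE 0.10, adjusted p = 0.838) from Random-Antisense and by -0.16 (SE 0.10, adjusted p = 0.478) from SAMP8. Ndufs7, the subunit with the last cluster before quinone, read 12.64, 12.78, 12.52 and 13.43 in AβPP-Antisense mice, 12.62, 12.72, 12.61 and 12.68 in Random-Antisense mice, 12.73, 12.71, 12.65 and 12.54 in SAMP8 mice and 12.74, 12.66, 12.57 and 12.45 in Control mice. AβPP-Antisense 4 was the highest array, and the difference from Random-Antisense was 0.19 (SE 0.16, adjusted p = 0.675). Without that array it was -0.0095, and without AβPP-Antisense 3 it was 0.29. A second Ndufs7 probe set, of mean 11.30, read 11.28 on AβPP-Antisense 4, within the range of the other arrays of its group. It gave 0.01 against Random-Antisense and -0.15 against SAMP8, where the representing probe set gave 0.18 against SAMP8. SAMP8 minus Control lay between -0.08 (Ndufv2) and 0.05 (Ndufs3) over the 6 core subunits measured, and those of Ndufs1, Ndufs3, Ndufs8 and Ndufv1, which were positive, were negative and within 0.04 of 0 without Control 4.

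Accessory subunits of the peripheral arm numbered 9 tested genes. Ndufa5, a small subunit of the Q module, averaged 13.65 ± 0.43 log2 units in AβPP-Antisense mice, 13.27 ± 0.04 in Random-Antisense mice, 13.32 ± 0.02 in SAMP8 mice and 13.18 ± 0.19 in Control mice (SD, n = 4 each). The wide spread of the AβPP-Antisense group came from 14.26 on array 4, against 13.61, 13.48 and 13.26 on the others, and array 3 lay inside the Random-Antisense range. The difference from Random-Antisense was 0.39 (SE 0.17, adjusted p = 0.38), and 0.18 without AβPP-Antisense 4. Ndufa6, a LYR-motif protein that binds the acyl carrier protein Ndufab1, read 11.16, 11.24, 10.99 and 11.18 in AβPP-Antisense mice, against 10.91, 10.97, 10.79 and 10.85 in Random-Antisense mice and 11.01, 10.99, 11.07 and 10.98 in SAMP8 mice. Its Random-Antisense arrays lay below all 4 of either group. The differences were 0.26 (SE 0.12, adjusted p = 0.391) for AβPP-Antisense minus Random-Antisense and -0.13 (SE 0.12, adjusted p = 1.00) for Random-Antisense minus SAMP8. Ndufa7 read 11.98, 11.78, 11.71 and 11.80 in AβPP-Antisense mice and 11.50, 11.70, 11.62 and 11.66 in Random-Antisense mice, with no overlap and a difference of 0.20 (SE 0.10, adjusted p = 0.465).

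Ndufs4 and Ndufa9 went the other way against SAMP8. Ndufs4, a late-joining subunit whose loss in mice causes a Leigh-like encephalopathy, read 10.23, 9.96, 10.20 and 10.15 in AβPP-Antisense mice, 10.10, 10.26, 10.25 and 10.08 in Random-Antisense mice and 10.41, 10.25, 10.59 and 10.30 in SAMP8 mice. The 4 AβPP-Antisense arrays lay below the 4 SAMP8 arrays, by -0.25 (SE 0.11, adjusted p = 0.315), and the Random-Antisense arrays overlapped both groups. On its other tested probe sets, of means 7.79 and 7.35, AβPP-Antisense minus SAMP8 was -0.26 and 0.20, so they disagreed in sign. Ndufa9, which binds NADPH near the junction of the arms, read 11.89, 11.85, 11.84 and 11.66 in AβPP-Antisense mice, 11.80, 11.92, 11.87 and 11.77 in Random-Antisense mice and 12.04, 11.93, 12.17 and 11.99 in SAMP8 mice. Both oligonucleotide groups lay below SAMP8 without overlap, by -0.22 (SE 0.10, adjusted p = 0.317) and -0.19 (SE 0.10, adjusted p = 1.00). Over the 9 genes, AβPP-Antisense minus Random-Antisense was positive in 6 and ran over -0.04 (Ndufs4) to 0.39 (Ndufa5), and Random-Antisense minus SAMP8 was negative in all 9.

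In the proximal membrane arm, 8 accessory genes were tested. Ndufc1, a small membrane-spanning subunit, read 12.55, 12.62, 12.49 and 13.25 in AβPP-Antisense mice, 12.30, 12.46, 12.34 and 12.48 in Random-Antisense mice, 12.41, 12.51, 12.34 and 12.52 in SAMP8 mice and 12.44, 12.30, 12.42 and 12.13 in Control mice. AβPP-Antisense 4 stood alone near 13.2, and the other AβPP-Antisense arrays were above the highest Random-Antisense array by a narrow margin. The difference between these groups was 0.33 (SE 0.15, adjusted p = 0.385), and AβPP-Antisense minus SAMP8 was 0.29 (SE 0.15, adjusted p = 0.386). Without AβPP-Antisense 4 they were 0.16 and 0.11. On a second Ndufc1 probe set, of mean 10.95, they were 0.22 and 0.01 with all arrays, AβPP-Antisense 4 read 11.01, and AβPP-Antisense overlapped Random-Antisense. Ndufa3 read 13.35, 13.48, 13.30 and 13.31 in AβPP-Antisense mice, against 13.07, 13.26, 13.20 and 13.04 in Random-Antisense mice. These did not overlap, and the difference was 0.21 (SE 0.11, adjusted p = 0.464). Ndufc2 showed the same separation with a smaller difference of 0.12 (SE 0.09, adjusted p = 0.619), which was 0.07 without AβPP-Antisense 4. Ndufa13, also known as the cell death regulator GRIM-19, differed by 0.24 (SE 0.11, adjusted p = 0.393) with overlapping arrays. Over the 8 genes, AβPP-Antisense minus Random-Antisense was positive in 7 and Random-Antisense minus SAMP8 was negative in 8, with medians of 0.17 and -0.12.

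The distal membrane arm, the part of the complex farthest from the quinone site, had 10 tested genes, all of the Ndufb series. Ndufb9, another LYR-motif subunit, read 13.47, 13.14, 13.04 and 13.63 in AβPP-Antisense mice, 12.84, 13.04, 12.93 and 13.04 in Random-Antisense mice, 13.11, 13.04, 13.09 and 12.97 in SAMP8 mice and 13.23, 12.99, 12.95 and 12.83 in Control mice. The AβPP-Antisense arrays were all above the Random-Antisense arrays, the closest pair being 13.045 on AβPP-Antisense 3 and 13.038 on Random-Antisense 2, and the difference was 0.36 (SE 0.13, adjusted p = 0.309). Ndufb11, encoded on the X chromosome, read 12.83, 12.62, 12.68 and 12.74 in AβPP-Antisense mice, 12.41, 12.62, 12.57 and 12.53 in Random-Antisense mice and 12.77, 12.70, 12.85 and 12.67 in SAMP8 mice. Random-Antisense was the low group, apart from both of the others, with 0.19 (SE 0.10, adjusted p = 0.455) for AβPP-Antisense minus Random-Antisense and -0.21 (SE 0.10, adjusted p = 1.00) for Random-Antisense minus SAMP8. Ndufb10, which faces the intermembrane space, read 12.07, 12.21, 12.08 and 12.16 in Random-Antisense mice, against 12.23, 12.22, 12.24 and 12.28 in SAMP8 mice. The separation was narrow, and the difference was -0.11 (SE 0.13, adjusted p = 1.00).

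Ndufb6 read 13.11, 13.30, 13.19 and 13.85 in AβPP-Antisense mice, 13.29, 13.20, 13.29 and 13.29 in Random-Antisense mice, 13.13, 13.28, 13.15 and 13.10 in SAMP8 mice and 13.05, 13.40, 13.24 and 12.84 in Control mice. It had the highest Random-Antisense minus SAMP8 difference of the 42 genes, 0.10 (SE 0.16, adjusted p = 1.00), and its groups overlapped. A second probe set, of mean 11.83, gave -0.21 in this comparison. Ndufb7, whose promoter window is printed above, read 12.00, 12.16, 11.82 and 12.99 in AβPP-Antisense mice, 11.80, 12.00, 11.80 and 11.93 in Random-Antisense mice and 12.02, 11.97, 12.00 and 11.95 in SAMP8 mice. The value on AβPP-Antisense 4 was 0.97 above the mean of the 16 arrays, and AβPP-Antisense 3 lay within the Random-Antisense range. The difference from Random-Antisense was 0.36 with all arrays and 0.11 without AβPP-Antisense 4. AβPP-Antisense minus Random-Antisense was positive in 10 of the 10 genes, between 0.10 (Ndufb6) and 0.36 (Ndufb9), and without AβPP-Antisense 4 and Control 4 it was positive in 8 of 10. The array AβPP-Antisense 4, the one with the large beta-actin 3′ to 5′ difference, had a median deviation from the 16-array mean of 0.42 over these 10 genes, -0.53 over the 3 core subunits of the N module and -0.20 over the 3 of the Q module. Within these core sets Ndufv1 and Ndufs7 went the other way, with their highest values of the 16 arrays there, 12.86 and 13.43. The medians use the representing probe sets. The other Ndufv2 probe sets were highest on that array, as given above, and so were the Ndufs8 probe sets of mean 12.15, at 12.47 and 12.48. Second probe sets of Ndufb5 and Ndufb6 read 12.30 and 11.72 there, below their means of 12.44 and 11.83. The other tested probe sets of the distal arm lay above theirs.

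**Figure D2:**
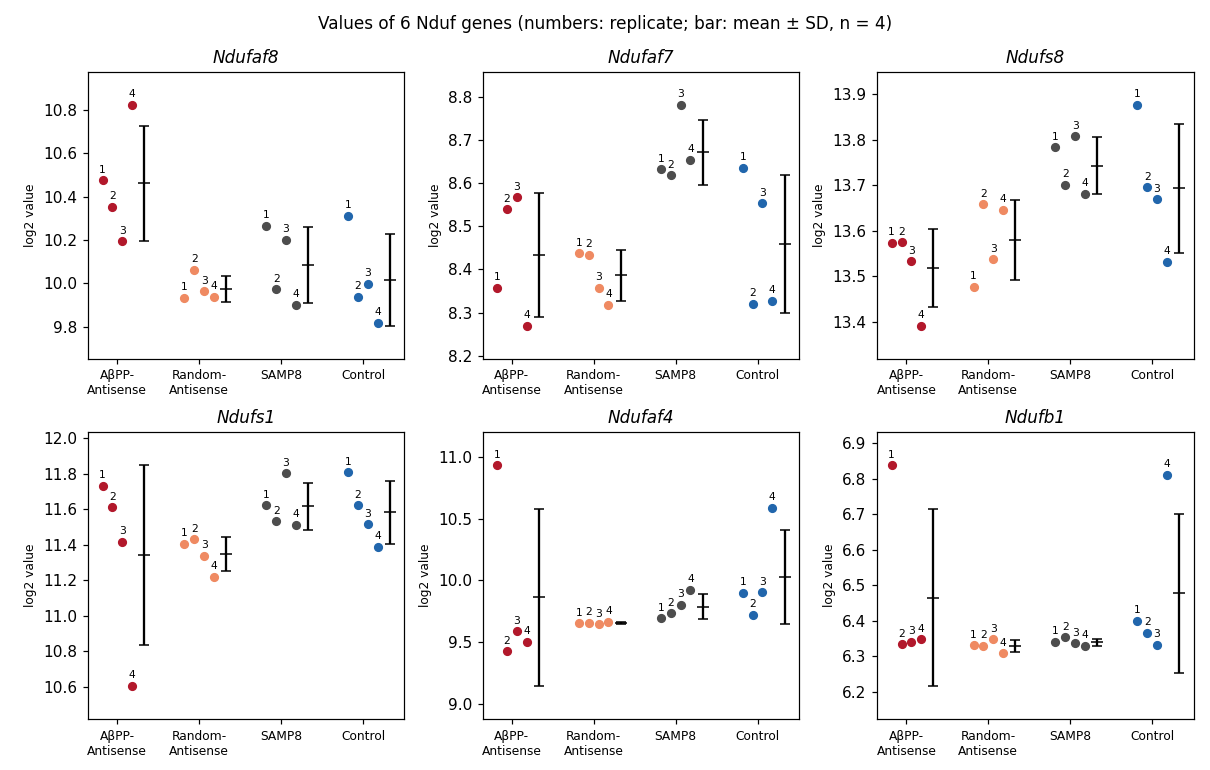
Log2 values of 6 Nduf genes on each array (numbers mark the replicate) with the mean ± SD of 4 arrays as a bar, for AβPP-Antisense, Random-Antisense, SAMP8 and Control. Ndufaf8 has its highest mean in AβPP-Antisense, Ndufaf7 and Ndufs8 are highest in SAMP8 against both oligonucleotide groups, and in Ndufs1, Ndufaf4 and Ndufb1 single arrays set the spread of a group.

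Assembly factors had 8 tested genes and the largest single difference. Ndufaf8, a small protein that stabilises Ndufaf5, read 10.48, 10.35, 10.19 and 10.82 in AβPP-Antisense mice, 9.93, 10.06, 9.96 and 9.94 in Random-Antisense mice, 10.26, 9.97, 10.20 and 9.90 in SAMP8 mice and 10.31, 9.94, 10.00 and 9.82 in Control mice. The 4 AβPP-Antisense arrays were above the 4 Random-Antisense arrays and overlapped SAMP8 and Control. AβPP-Antisense set against Random-Antisense differed by 0.49 (SE 0.15, adjusted p = 0.219), with a 95% interval of 0.18 to 0.80, and AβPP-Antisense minus SAMP8 was 0.38 (SE 0.15, adjusted p = 0.255). On its second probe set, of mean 5.69, the first of these differences was 0.39 (adjusted p = 0.292). Without AβPP-Antisense 4 and Control 4 it was 0.37 (SE 0.12, adjusted p = 0.154) on the probe set that represents the gene. Without AβPP-Antisense 3, the lowest array of its group, it was 0.58 and passed the test, with an adjusted p of 0.0489; in that setting 896 of all tested probe sets passed, against 20 with all arrays.

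Ndufaf7, a methyltransferase that modifies a core subunit of the Q module, read 8.36, 8.54, 8.57 and 8.27 in AβPP-Antisense mice, 8.44, 8.43, 8.36 and 8.32 in Random-Antisense mice, 8.63, 8.62, 8.78 and 8.65 in SAMP8 mice and 8.64, 8.32, 8.55 and 8.33 in Control mice. SAMP8 was the high group, apart from both oligonucleotide groups and overlapping Control by a single array. The differences were -0.24 (SE 0.11, adjusted p = 0.323) for AβPP-Antisense minus SAMP8, -0.28 (SE 0.11, adjusted p = 1.00) for Random-Antisense minus SAMP8 and 0.21 (SE 0.11, adjusted p = 0.999) for SAMP8 minus Control. Ndufaf5, a hydroxylase that modifies Ndufs7, read 9.53, 9.35, 9.44 and 9.55 in SAMP8 mice, against 9.36, 9.33, 9.33 and 8.92 in Control mice. Control 4 was the low array, the groups overlapped, and the difference was 0.23 (SE 0.12, adjusted p = 0.999), the highest of the 42 in SAMP8 minus Control. Without Control 4 it was 0.13, below the 0.17 of Ndufaf7 in the same setting.

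Ndufaf3 and Ndufaf4 work together on the Q module. Ndufaf3 read 9.76, 9.39, 9.53 and 9.52 in AβPP-Antisense mice, 9.15, 9.35, 9.16 and 9.35 in Random-Antisense mice, 9.45, 9.28, 9.73 and 9.49 in SAMP8 mice and 9.56, 9.34, 9.26 and 8.93 in Control mice. The AβPP-Antisense arrays were above the Random-Antisense arrays, by 0.30 (SE 0.14, adjusted p = 0.416), and SAMP8 minus Control was 0.22 (SE 0.14, adjusted p = 0.999), which was 0.10 without Control 4 and 0.14 without SAMP8 3. Ndufaf4 read 10.94, 9.42, 9.59 and 9.50 in AβPP-Antisense mice, 9.65, 9.66, 9.64 and 9.66 in Random-Antisense mice, 9.69, 9.73, 9.80 and 9.92 in SAMP8 mice and 9.90, 9.72, 9.90 and 10.59 in Control mice. It was high on AβPP-Antisense 1 and on Control 4, and the 4 Random-Antisense values, which were close together, lay just below the 4 SAMP8 values. The differences were 0.21 (SE 0.27, adjusted p = 0.802) for AβPP-Antisense minus Random-Antisense, -0.13 (SE 0.27, adjusted p = 1.00) for Random-Antisense minus SAMP8 and -0.24 (SE 0.27, adjusted p = 0.999) for SAMP8 minus Control. The first was -0.15 without AβPP-Antisense 1, 0.35 without AβPP-Antisense 2 and 0.33 without AβPP-Antisense 4, the second was -0.09 without SAMP8 4, and the third was -0.05 without Control 4. A second Ndufaf4 probe set of like mean, 9.81, read 9.99 on AβPP-Antisense 1, its highest value of the 16, and 9.44 on Control 4, its lowest. It was thus high on AβPP-Antisense 1 by a smaller margin than the first probe set, the other arrays of the group reading 9.75 to 9.81, and went the opposite way on Control 4. Of 42 genes this was the one with the widest spread within AβPP-Antisense (SD 0.72) and within Control (SD 0.39), and with the narrowest within Random-Antisense (SD 0.01).

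Ndufaf1, part of the complex that assembles the membrane arm, read 8.89, 8.01, 8.76 and 9.01 in AβPP-Antisense mice, 8.66, 8.89, 8.84 and 8.86 in Random-Antisense mice, 8.67, 8.69, 8.89 and 8.90 in SAMP8 mice and 9.36, 8.97, 8.59 and 9.05 in Control mice. It was low on AβPP-Antisense 2 and high on Control 1, and it had the lowest AβPP-Antisense minus Random-Antisense difference of the 42 genes, -0.15 (SE 0.20, adjusted p = 0.808), which was 0.07 without AβPP-Antisense 2 and -0.26 without AβPP-Antisense 4. Ndufaf2, a late-acting factor related to Ndufa12, read 8.66, 8.75, 8.68 and 8.31 in AβPP-Antisense mice, 8.75, 8.69, 8.52 and 8.60 in Random-Antisense mice, 8.78, 8.66, 8.82 and 8.84 in SAMP8 mice and 9.19, 8.99, 9.08 and 8.60 in Control mice. The first 3 Control arrays were the highest of the 16 and Control 4 was among the low ones. SAMP8 minus Control was -0.19 (SE 0.14, adjusted p = 0.999), and without Control 4 and AβPP-Antisense 4 it was -0.31 (SE 0.08, adjusted p = 0.209), with no overlap; without Control 1 it was -0.12. With the 2 arrays left out Ndufaf2 was the 1 gene of 42 past the threshold in the F test, with an adjusted p of 0.0457. Ndufaf6, needed early in assembly, ran over 6.47 to 7.04 on the 16 arrays with differences between -0.10 and 0.06 in the 4 comparisons. Ndufa4, first described as a complex I subunit and later placed in complex IV, differed by 0.11, -0.04, -0.15 and 0.01 in those comparisons.

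The question asked of AβPP-Antisense against Random-Antisense is what the directed oligonucleotide does beyond an oligonucleotide of random sequence. Among the 42 genes 32 had a positive difference (76.2%), against 56.8% of all tested genes, and the median difference was 0.14 log2 units, against 0.04 over all genes. An unadjusted p under 0.05 was reached by 6 higher genes (14.3%), against 5.74% of all genes, namely Ndufaf8, Ndufb9, Ndufa5, Ndufc1, Ndufa6 and Ndufa13, and by 0 lower genes, against 3.09%. The 4 arrays of AβPP-Antisense all lay above the 4 of Random-Antisense in 9 genes (21.4%), against 4.68% of all genes, and all below in 0, against 2.26%. The 9 were Ndufaf8, Ndufb9, Ndufc1, Ndufa6, Ndufaf3, Ndufb11, Ndufa3, Ndufa7 and Ndufc2. On the other tested probe sets of Ndufaf8, Ndufb9, Ndufc1, Ndufa3 and Ndufc2 these groups overlapped. Those of Ndufb11 and Ndufa7 overlapped on some and not on others, and Ndufa6 and Ndufaf3 had no other. Without AβPP-Antisense 4 and Control 4, 33 of 42 differences were positive, against 55.3% of all genes, with a median of 0.11, and 9 genes did not overlap, against 7.65% of all genes. With the beta-actin measure as a covariate the median was 0.07 and 1 gene had an unadjusted p under 0.05, where the fit without it gave 6. That count of 6 moved with single arrays, being 1 without AβPP-Antisense 4, 2 without Random-Antisense 1 or Random-Antisense 3, 3 without Random-Antisense 4, 10 without Control 4 and 13 without AβPP-Antisense 3, whereas the 32 positive differences numbered 30 to 35 when each array was left out in turn. Without AβPP-Antisense 3, 896 of all tested probe sets passed an adjusted p of 0.05, against 20 with all arrays. Shares of all genes at an unadjusted p under 0.05 are not given for these settings, so the changed counts are not a result about the Nduf genes. Markers of other cell types moved in the same comparison. The microglia markers (9 of 10 tested) summed to 12.68 to 12.91 log2 units in AβPP-Antisense, against 12.22 to 12.50 in Random-Antisense, without overlap. Of the 9, 4 had AβPP-Antisense arrays wholly above (against the 4.68% of all genes). The sum did not stand for every marker. On AβPP-Antisense 4, Cx3cr1 read 7.448 and P2ry12 5.347, below their Random-Antisense ranges of 8.976 to 9.177 and 8.682 to 9.225. On AβPP-Antisense 1 and 3 these genes lay above those ranges, and on AβPP-Antisense 2 Cx3cr1, at 8.89, lay below. Of 9 tested markers of endothelial and mural cells, which summed to 11.26 to 11.98 in AβPP-Antisense, against 10.87 to 11.27 in Random-Antisense, 4 had an unadjusted p under 0.05 in the higher direction. None of either list passed an adjusted p of 0.05, and their part in the Nduf differences was not tested. Adjusted p-values over the 42 genes ran over 0.219 to 0.992. A two-sided exact permutation of the 8 arrays, run for the 42 genes in all 4 comparisons (168 tests), reached its smallest possible p of 0.0286 in 21 tests, the 9 just named among them, and 0.229 after adjustment over the 168.

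AβPP-Antisense against SAMP8, untreated mice of the same strain, gave signs in a share near that of all genes. Of the 42 genes 25 had a positive difference (59.5%), against 55.2% of all genes, and the median was 0.04, against 0.03. Ndufaf8 was the 1 gene with an unadjusted p under 0.05 in the higher direction (2.38%, against 5.57% of all genes). In the lower direction 4 genes reached it (9.52%, against 4.42%), Ndufs8, Ndufs4, Ndufa9 and Ndufaf7, and the same 4 were the genes whose AβPP-Antisense arrays all lay below the SAMP8 arrays (against 2.88% of all genes). None lay wholly above, where 4.05% of all genes did. On the Ndufs8 probe sets of mean 12.15 and on the other tested Ndufs4 probe sets these groups overlapped. Without AβPP-Antisense 4 and Control 4, positive and negative differences numbered 21 each and the median was -0.0027. In that setting 4 genes lay wholly below (9.52%, against 4.9% of all genes) and 0 wholly above (against 6.15%). The 4 genes of unadjusted p under 0.05 in the lower direction numbered 0 without SAMP8 1 or SAMP8 3, 1 without AβPP-Antisense 4, and 2 without SAMP8 2, SAMP8 4, Random-Antisense 1, Random-Antisense 3 or AβPP-Antisense 3. The 1 in the higher direction became 8 without AβPP-Antisense 3, 3 without AβPP-Antisense 2, 2 without AβPP-Antisense 1, and 0 without SAMP8 2, SAMP8 4 or AβPP-Antisense 4. The whole array moved too: without AβPP-Antisense 3, 1286 of all tested probe sets passed an adjusted p of 0.05 in this comparison, against 69 with all arrays. For these settings too the shares of all genes at an unadjusted p under 0.05 are not given. The microglia markers summed to 12.40 to 12.49 in SAMP8, below the AβPP-Antisense range given above. The endothelial and mural markers summed to 10.92 to 11.25 in SAMP8, likewise below it. The thalamus markers summed to 11.35 to 12.93 in AβPP-Antisense, against 12.79 to 13.01 in SAMP8, and 8 of 8 had a negative difference, 4 of them with an unadjusted p under 0.05. The part of these markers was not tested here either. Adjusted p-values ran over 0.255 to 0.981.

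Random-Antisense against SAMP8 compares an oligonucleotide of random sequence with no treatment. The difference was negative in 39 of the 42 genes (92.9%), against 53.4% of all genes, and the median was -0.12, against -0.01 over all genes. Ndufb6, Ndufaf1 and Ndufv1 were the exceptions, at 0.10, 0.03 and 0.01. On other probe sets the difference was -0.21 for Ndufb6, and 0.05 and -0.09 for Ndufv1. In 8 genes (19%) the 4 Random-Antisense arrays lay below the 4 SAMP8 arrays, against 4.86% of all genes, and in 0 above, against 4.21%. The 8 were Ndufaf7, Ndufb11, Ndufa9, Ndufs8, Ndufs1, Ndufa6, Ndufb10 and Ndufaf4. On the other tested probe sets of Ndufb11, Ndufs8 and Ndufaf4 these groups overlapped. An unadjusted p under 0.05 was reached by 2 lower genes, Ndufaf7 and Ndufb11 (4.76%, against 0.654% of all genes), and by 0 higher ones (against 0.384%). The 2 became 0 without SAMP8 3, 1 without SAMP8 1, SAMP8 2, Control 3 or any of Random-Antisense 1, 3 and 4, 5 without AβPP-Antisense 4, 7 without that array and Control 4, and 11 when the fit held just the 8 arrays compared. The 0.654% belongs to the fit with all arrays. Shares of all genes in the other settings are not given, so these changed counts are not a result about the Nduf genes. The largest difference was -0.28 and all 42 adjusted p-values were 1.00 after rounding. Markers of the thalamus, a neighbouring brain region, were lower in the same comparison: the 8 of 8 tested summed to 12.10 to 12.63 log2 units in Random-Antisense, against 12.79 to 13.01 in SAMP8, without overlap. All 8 had a negative difference (median -0.60) and 5 of the 8 had Random-Antisense arrays wholly below, against the 4.86% of all genes, while 0 passed an adjusted p of 0.05. The part of these markers in the Nduf differences was not tested. With Random-Antisense 1 counted as an untreated SAMP8 mouse, as its treatment field has it, 35 of 42 differences were negative and the median was -0.07. This comparison shares the Random-Antisense arrays with the first and the SAMP8 arrays with the second, so the 3 are not independent of each other, and a low Random-Antisense group enters the first with a positive sign and this comparison with a negative one.

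**Figure D3:**
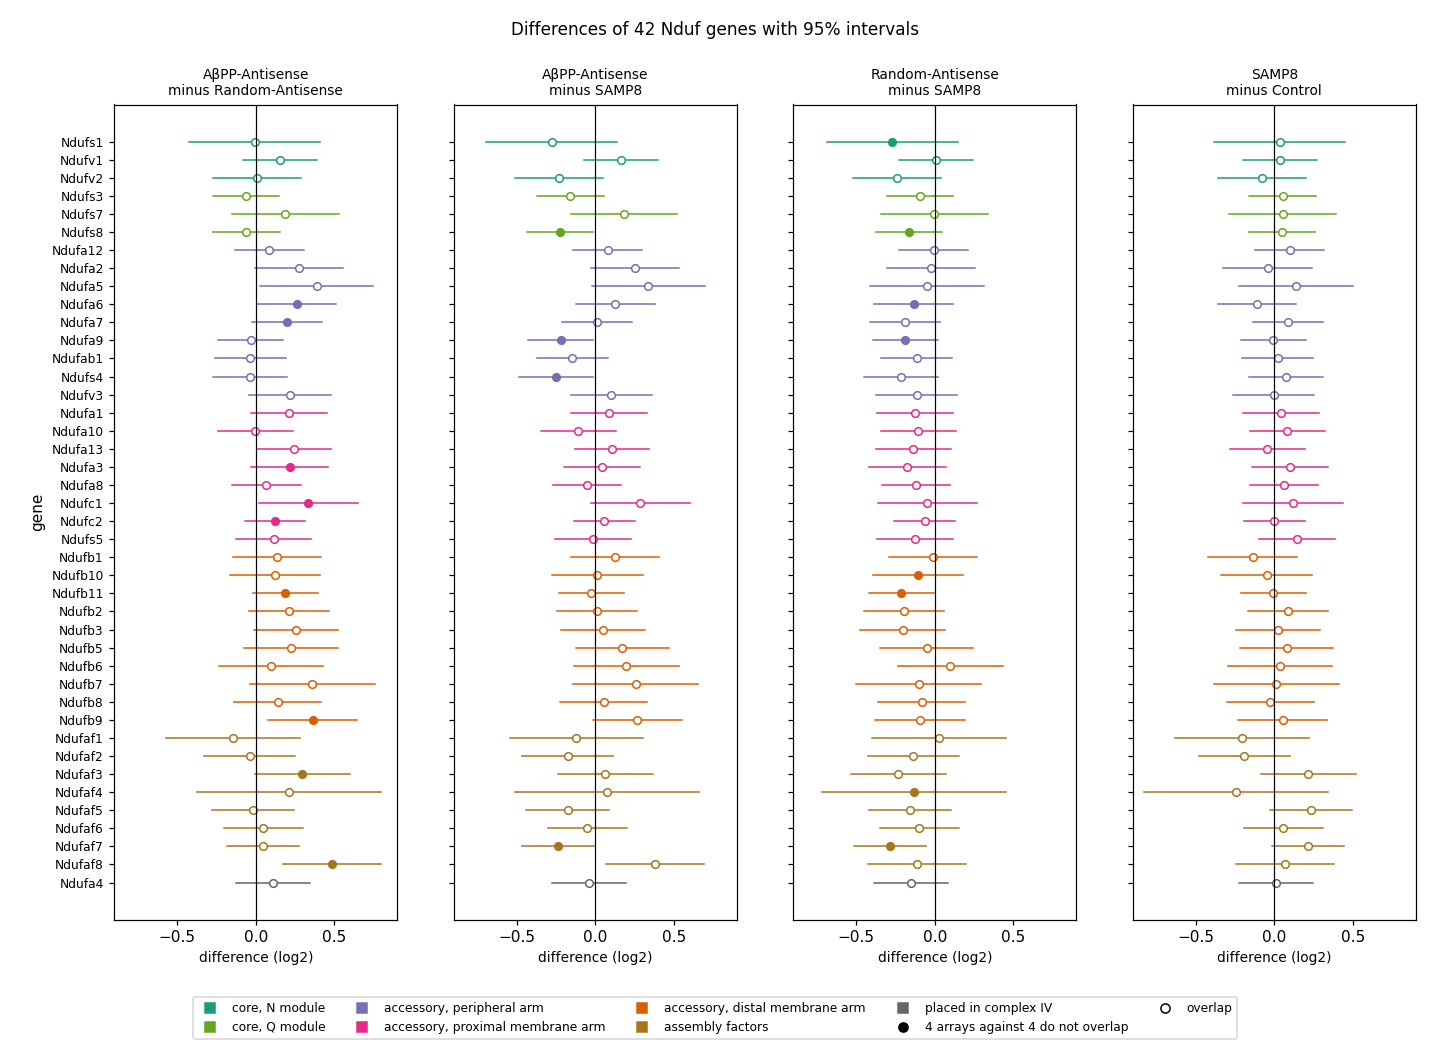
Differences in log2 units with 95% intervals of limma for the 42 tested Nduf genes in 4 comparisons, coloured by role; filled points mark genes whose 4 arrays of 1 group all lie above or below the 4 of the other. Differences lie mostly right of 0 in AβPP-Antisense minus Random-Antisense (32 of 42) and left of 0 in Random-Antisense minus SAMP8 (39 of 42), and none exceeds 0.49 in size.

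SAMP8 against Control sets mice of the strain with memory deficits against the related mice without them. Of the 42 genes 28 had a positive difference (66.7%), against 60.2% of all genes, and the median was 0.04, equal after rounding to that of all genes. The positive differences numbered 18 to 32 when each array was left out in turn, 18 being without Control 4. An unadjusted p under 0.05 was reached by 0 genes in either direction, against 2.34% of all genes higher and 1.43% lower, and 0 genes had groups that did not overlap, against 2.99% higher and 1.53% lower. The genes farthest from 0 were the assembly factors Ndufaf5, Ndufaf3 and Ndufaf7 on the positive side and Ndufaf4, Ndufaf1 and Ndufaf2 on the negative side, all with values given above. Control 4, the array with leukocyte transcripts and with a median deviation of -0.60 over the neuronal markers, held the lowest value of 17 of the 42 genes. Without it and AβPP-Antisense 4, 18 differences were positive and 24 negative, the median was -0.0047, and the median over all genes was 0.0040. The part of the leukocyte transcripts in these values was not tested.

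As whole arrays, the median deviation of the 42 genes from their 16-array means was 0.10, 0.06, -0.06 and 0.14 log2 units in AβPP-Antisense mice, -0.13, -0.02, -0.10 and -0.10 in Random-Antisense mice, 0.06, -0.01, 0.08 and -0.02 in SAMP8 mice and 0.08, 0.01, 0.01 and -0.16 in Control mice. The Random-Antisense arrays were the only group with all 4 below 0, and their highest, -0.0188 on Random-Antisense 2, was level with the lowest SAMP8 array, at -0.0186, and above AβPP-Antisense 3. The spread within arrays differed more than the medians: the middle 50% of the 42 deviations spanned 0.52 log2 units on AβPP-Antisense 4 and 0.07 to 0.24 on the other 15 arrays. Within groups the median SD of a gene was 0.17 in AβPP-Antisense, 0.08 in Random-Antisense, 0.08 in SAMP8 and 0.16 in Control, so that the groups with the 2 arrays set apart were the more variable ones.

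**Figure D4:**
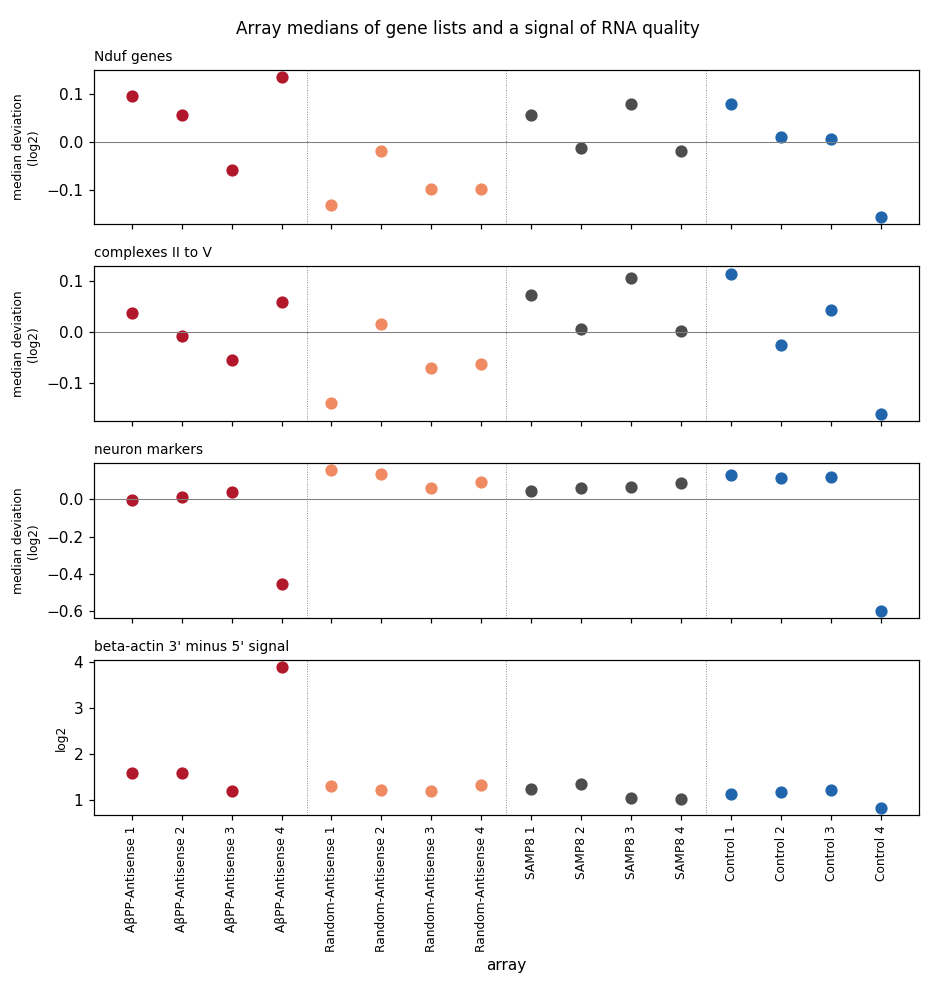
For each of the 16 arrays, grouped as AβPP-Antisense, Random-Antisense, SAMP8 and Control, the median deviation (log2) of the 42 Nduf genes, of 39 genes of complexes II to V and of 10 neuronal markers, and the 3′ minus 5′ signal of beta-actin (log2). The Nduf and complex II to V medians are both lowest on Control 4, where the neuronal markers are at -0.60, and beta-actin is at 3.89 on AβPP-Antisense 4.

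Other genes of the respiratory chain were set beside the Nduf genes from lists of their subunits. Of complexes II to V, 39 genes were tested and 0 passed in any of the 4 comparisons. AβPP-Antisense minus Random-Antisense was positive in 26 of the 39 with a median of 0.09, AβPP-Antisense minus SAMP8 was positive in 17 with a median of -0.0064, Random-Antisense minus SAMP8 was negative in 35 with a median of -0.10, and SAMP8 minus Control was positive in 27 with a median of 0.05. In Random-Antisense minus SAMP8 the negative differences numbered 39 of 42 among the Nduf genes and 35 of 39 there. The genes of smallest p were Cyc1, the cytochrome of complex III, at -0.25 in the first comparison (adjusted p = 0.325), and Atp5g1, a ring subunit of ATP synthase, in the second (adjusted p = 0.121). The mitochondrially encoded subunits had 1 tested gene, ND5, with differences of -0.02, -0.11, -0.09 and -0.05 in the 4 comparisons.

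Assembly factors of complex I that do not carry a Nduf symbol numbered 13 tested genes. AβPP-Antisense minus Random-Antisense was positive in 5 of the 13, with a median of -0.09 and a range of -0.61 to 0.55, and 0 passed the test. The ends of that range were Tmem126b and Tmem186, both of the complex that assembles the membrane arm, at -0.61 (SE 0.27, adjusted p = 0.386) and 0.55 (SE 0.20, adjusted p = 0.310). Against SAMP8 they stood at -0.86 (SE 0.27, adjusted p = 0.179) and 0.69 (SE 0.20, adjusted p = 0.163). Lyrm2, an N module factor, differed by -0.28 and -0.29 in these comparisons and its AβPP-Antisense arrays lay wholly below both groups. Timmdc1, which takes part in building the membrane arm, had the smallest p in SAMP8 minus Control, -0.44 (SE 0.11, adjusted p = 0.216), with SAMP8 arrays below the Control arrays. Among 9 regulators of nuclear respiratory genes 0 passed, and the smallest p-values belonged to Esrra at -0.28 (adjusted p = 0.463) in AβPP-Antisense minus Random-Antisense and to Gabpb1, a subunit of GABP, at 0.37 (adjusted p = 0.241) in AβPP-Antisense minus SAMP8.

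The other probe sets of the same genes give a check that the choice of the brightest did not use. For 21 of the 42 genes 37 further probe sets were tested, and 0 passed in any comparison. Their difference had the sign of the representing probe set in 25 of 37 for AβPP-Antisense minus Random-Antisense, 21 for AβPP-Antisense minus SAMP8, 30 for Random-Antisense minus SAMP8 and 32 for SAMP8 minus Control, with medians of 0.17, 0.01, -0.16 and 0.04. Ndufv2 was near 0 on its representing probe set in the first comparison, at 0.01, and at 0.27 and 0.31 on its others. Ndufab1 stood at -0.03, with 0.52, 0.20 and -0.04 on its others. Ndufs4 stood at -0.04, with -0.39 and 0.32, so that its probe sets disagreed in sign.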

How the data were processed

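Biotin-labelled cRNA from hippocampal RNA was hybridised to Affymetrix mouse arrays. The authors deposited log2 values made with GCRMA, per the submitters' processing notes, and these were used; no version is given. GCRMA corrects background from probe sequence and makes the arrays' distributions alike, so a shift common to most genes is removed before deposit. The scanned intensities were not used here.

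The table held 45101 probe sets. After 64 control probe sets were removed, 23905 passed the filter (over 4 log2 on at least 4 of 16 arrays). Of the probe sets without controls 34945 have 1 gene symbol, 932 have several and 9160 have none. The probe set of highest mean stands for a gene (11464 tested genes).

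limma 3.58.1 in R 4.3.3 fitted 4 groups of 4 arrays (residual degrees of freedom 12, prior 2.63), with Benjamini-Hochberg adjustment over all tested probe sets of a comparison and a threshold of 0.05. The fit was tested on simulated data. Groups came from sample titles, and 4 arrays a group limits the precision. Whether replicates came from separate litters or batches is not stated, so p-values measure the spread between these mice. Alternatives were other filters, probe sets, centring, variance models and a covariate, and leaving out arrays. The genes, lists and comparisons were chosen with earlier results of these data known. Genes were named by rule: the 3 largest differences each way, those whose groups do not overlap (up to 8 by p) and the core subunits; Ndufb7, Ndufa13, Ndufc2, Ndufaf6 and Ndufa4 were added after their values were seen.

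Promoter windows and gene coordinates are RefSeq's on GRCm38.p6; for the arrays a build is not given in sources used here. Figures were drawn with matplotlib 3.10.9.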

Additional observations from a re-analysis of the deposited data

Results flagged for a closer look

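In 172 groups of 4 arrays, those of the 42 genes and of their array median, 6 held a single array farther from the others than Dixon's 95% limit allows; chance alone gives about 1 in 20 groups, which is more than was found. Control 4 was the array in 3 of them. It read 12.7393 for Ndufa12, against 13.0791 to 13.1124 on the other Control arrays, 8.9167 for Ndufaf5, against 9.3270 to 9.3570, and 6.8104 for Ndufb1, against 6.3317 to 6.3997. AβPP-Antisense 1 read 10.9361 for Ndufaf4, against 9.4248 to 9.5873 on the other arrays of its group, and 6.8374 for Ndufb1, against 6.3334 to 6.3482. Random-Antisense 2 read 13.2034 for Ndufb6, against 13.2856 to 13.2888. Ndufb1 has no second probe set, and the second probe set of Ndufaf4 was also highest on AβPP-Antisense 1, at 9.99, by a smaller margin.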

How the results depend on the processing

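Over 27 settings, 234 recomputed counts of called Nduf genes and medians of their differences gave 230 that kept the count within 1.5 times or moved by less than 0.0735 log2 units, the SD of the array median within groups. The 4 that did not were the F test without Control 4 and AβPP-Antisense 4 (1 gene, Ndufaf2), the count (1 gene, Ndufaf8) and median (0.217) of AβPP-Antisense minus Random-Antisense without AβPP-Antisense 3, and the median of AβPP-Antisense minus SAMP8 with the beta-actin covariate (-0.0335); the cause was not tested. All other counts of called genes were 0, as in the main fit. The limit of 0.0735 is larger than the medians of AβPP-Antisense minus SAMP8 (0.0447) and SAMP8 minus Control (0.0404). Some changes of sign in these medians were therefore counted as kept, and the 230 are not a measure of stability. Leaving out each array in turn gave 0 to 1 called genes in AβPP-Antisense minus Random-Antisense and 0 in the other comparisons and the F test. Medians then ran over 0.106 to 0.217, -0.014 to 0.0806, -0.148 to -0.0976 and -0.0047 to 0.0809 in AβPP-Antisense minus Random-Antisense, AβPP-Antisense minus SAMP8, Random-Antisense minus SAMP8 and SAMP8 minus Control; the lowest of the second was without AβPP-Antisense 1 and of the last without Control 4. Among 1404 recomputed differences of 54 named gene and comparison pairs, core subunits included, 48 in 15 pairs changed sign, and the cause was not tested. Ranges are over the single arrays left out. In AβPP-Antisense minus Random-Antisense, Ndufaf1 ran over -0.261 to 0.0724, Ndufv2 over -0.0691 to 0.138, Ndufs1 over -0.137 to 0.238 and Ndufs7 over -0.00955 to 0.293. Without AβPP-Antisense 4 and Control 4, Ndufs1 was 0.238 and Ndufs7 -0.00955; with the covariate they were 0.284 and -0.0814. With arrays centred on their median Ndufs1 was 0.0242, with Random-Antisense 1 counted as SAMP8 Ndufs1 was 0.0116 and Ndufv2 -0.0159, and as the mean of its probe sets Ndufs8 was 0.0312. In AβPP-Antisense minus SAMP8, Ndufs7 ran over -0.0131 to 0.289, was -0.0131 without both arrays and -0.116 with the covariate, where Ndufs1 was 0.0476. In Random-Antisense minus SAMP8, Ndufaf1 ran over -0.0124 to 0.079, Ndufv1 over -0.0343 to 0.0417 and Ndufs7 over -0.0426 to 0.0198. Ndufb6 and Ndufv1 were -0.0537 and -0.0115 as means of their probe sets, Ndufv1 was -0.0075 with the covariate, and Ndufs7 was 0.00698 with centring and 0.017 with Random-Antisense 1 counted as SAMP8. In SAMP8 minus Control the ranges were -0.0313 to 0.109 for Ndufs1, -0.00961 to 0.102 for Ndufs3, -0.00382 to 0.111 for Ndufs8 and -0.00174 to 0.0794 for Ndufv1; each lowest value was without Control 4 and was the same without both arrays, and with Random-Antisense 1 counted as SAMP8 Ndufs1 was -0.0087 and Ndufs8 -0.0034. Counts at an unadjusted p under 0.05 also moved by over 1.5 times in several settings, for which the shares of all genes are not given. For example, the 6 higher genes of AβPP-Antisense minus Random-Antisense were 14 without the filter, 12 with a trend and robust prior, 11 with centring, 3 with the replicate block and 2 with Random-Antisense 1 counted as SAMP8. The 4 lower genes of AβPP-Antisense minus SAMP8 were 0 with centring, the covariate, Random-Antisense 1 counted as SAMP8 or just the 8 arrays, and 2 as means of probe sets. The 2 lower genes of Random-Antisense minus SAMP8 were 6 without the filter. A plain one-way analysis of variance per probe set, the design text's method, called 0 of the 42 genes after adjustment.

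Replicate numbers recur across groups. The correlation of same-numbered arrays' deviations from group means was -0.275 to 0.236 over 24 pairs (9 over 0.1), so the numbers were not taken to pair the mice; the fit with the replicate block called 0 Nduf genes in each comparison, with medians of 0.137, 0.0447, -0.118 and 0.0404. With 4 arrays a group the median standard error of a Nduf difference was 0.12 log2 units.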
